A study of Mus musculus with 18 samples.

Results

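The 34 genes described here encode the enzymes that B cells use to build nucleotides: those of purine and pyrimidine synthesis, of deoxynucleotide supply, of the folate one-carbon pathway and of serine synthesis, and those of purine salvage. They were chosen by name, as the enzymes of these pathways, with earlier results of these data known. All 34 were found among the 23420 genes of the deposited tables. They were read in 8 branches: PRPP and IMP synthesis (8 genes), AMP and GMP synthesis (4), pyrimidine synthesis (5), deoxynucleotide synthesis (5), deoxynucleoside salvage (2), folate one-carbon metabolism (5), serine synthesis (3) and purine salvage (2).

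A resting lymphocyte makes little DNA or RNA and can live largely on recycled bases, whereas a cell that enters growth has to enlarge its nucleotide pools. Purine rings are assembled stepwise on phosphoribosyl pyrophosphate (PRPP) to give inosine monophosphate (IMP), from which AMP and GMP branch, while the pyrimidine ring is closed before the sugar is added. Carbon units for purines and for thymidylate come from serine through folate, with parallel sets of enzymes in the cytosol and in mitochondria, and serine itself can be made from a glycolytic intermediate.

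RNA was sequenced from splenic B cells of MRL/lpr mice, a lupus-prone strain with a Fas defect, aged 5 to 7 weeks. Cells were enriched by bead depletion of other cell types and cultured for 4 h, which gave 18 libraries, 3 for each of 6 conditions. In one arm (the first arm here) the mice were female and Tlr7-/-. Control cells labelled Tlr9+/- Tlr7-/- (Tlr9het here) and cells homozygous for a knocked-in TLR9 whose signaling TIR domain is that of TLR7 (Tlr997 Tlr7-/-, Tlr997 here) were left unstimulated or given 10 µg/ml CpG, a DNA oligonucleotide agonist of TLR9. In the second arm the mice were male and Tlr9-/-, and cells with a TLR7 that carries the TIR domain of TLR9 (Tlr779 Tlr9-/-, Tlr779 here) were left unstimulated or given 5 µg/ml CL097, a small-molecule agonist of TLR7. The titles give the first control as Tlr9+/-, while the treatment protocol writes Tlr9-/- Tlr7-/- for it, and the titles were followed. Arm, sex, genotype and agonist changed together between the arms and cannot be told apart. Cells of 3 mice per genotype were used per the labels, which do not say that a replicate number marks a mouse.

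Values were log2 CPM (log2 of library-scaled counts after quantile normalization), and the depth of each library is unknown. Tlr7 was at 6.61 to 7.82 log2 CPM in the Tlr779 libraries, at 4.81 to 5.36 in Tlr997, whose allele holds TLR7 TIR sequence, and at 2.68 to 4.28 in Tlr9het. The libraries labelled Tlr9-/- carry the Tlr779 allele, which holds TLR9 TIR sequence. In them Tlr9 was at 6.93 to 7.47, and in Tlr997 at 7.02 to 7.56, so the transcript level overlapped and did not set that label apart. In Tlr9het it was at 7.28 to 7.48 without and 7.93 to 8.08 with CpG. Tlr997 lay lower in each condition without overlap, at 7.02 to 7.06 without and 7.18 to 7.56 with CpG. The 5 B-cell markers, among them Cd79a and Ms4a1, summed to 12.25 to 12.68 on the log2 scale without agonist. With agonist their sum was lower, at 10.17 to 11.28, and 4, 3 and 4 of the 5 were called lower in Tlr9het, Tlr997 and Tlr779, while Pax5 was called higher in Tlr9het. All 6 macrophage and monocyte markers had log2 fold changes below 0 in each response, with 1, 1 and 2 called lower, and their sum was 7.03 to 8.82 without and 6.45 to 7.59 with agonist. Of the 5 plasma cell markers, Igj, Sdc1 and Xbp1 were called lower and Irf4 higher in each response, and Prdm1 was not called. The sum was 10.08 to 10.69 without and 11.04 to 11.36 with agonist, and its increase came from Irf4. In Tlr9het the mean of Irf4 went from 691.3 to 2102 CPM with CpG, while that of Igj went from 407.8 to 245.9. The part of these markers in the responses was not tested. Fewer cells of a type and less RNA per cell cannot be told apart in such bulk samples. The 5-gene erythroid sum ranged from 3.545 to 8.69 over the libraries and came almost wholly from Alas2, while the globin genes Hba-a1 and Hba-a2 were at the most frequent low value of the tables, -5.05, in every library. Replicate 3 of unstimulated Tlr997 correlated with the other libraries of its group at 0.944 and 0.955, where all other pairs of replicates had 0.976 to 0.989.

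Calls required both a limma p, adjusted by Benjamini-Hochberg over all genes tested, under 0.05 and a log2 fold change beyond 0.5 in either direction, and "rose" and "fell" are used for called genes. All 34 genes passed the filter on low values in both arms.

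Most nucleotide synthesis genes rose with either agonist. With CpG, 28 of the 34 genes rose in Tlr9het and 3 fell, while 29.7% of the 11494 genes tested were called higher and 28.2% lower. In Tlr997, 28 rose and 3 fell, against 29.6% higher and 26% lower over all genes. With CL097 in Tlr779, 25 rose and 2 fell, against 22.7% and 23.6% of the 11082 genes tested. The median log2 fold change of the 34 genes was 1.38, 1.28 and 0.88, where the median over all genes tested was 0.04, 0.07 and -0.02.

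The mean level of the 34 genes in each library shows the same shift. It was 5.88, 5.90 and 5.89 log2 CPM in the unstimulated Tlr9het libraries and 7.02, 7.01 and 6.97 with CpG. In Tlr997 it was 6.02, 6.08 and 5.88 without and 7.01, 7.03 and 6.97 with CpG. In Tlr779 it was 5.999, 6.09 and 5.91 without and 6.75, 6.86 and 6.80 with CL097. Stimulated and unstimulated libraries did not overlap, and the CL097 libraries lay below all 6 CpG libraries. Across the 3 responses, 23 genes rose in all and 2, Ctps2 and Dck, fell in all. Adss, Dut, Mthfd1l, Phgdh and Psph rose with CpG in both genotypes and were not called with CL097, Prps2 fell with CpG and was not called with CL097, and Rrm2 and Tk1 were called higher with CL097 and not with CpG. Rrm1 was called in none.

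**Figure D1:**
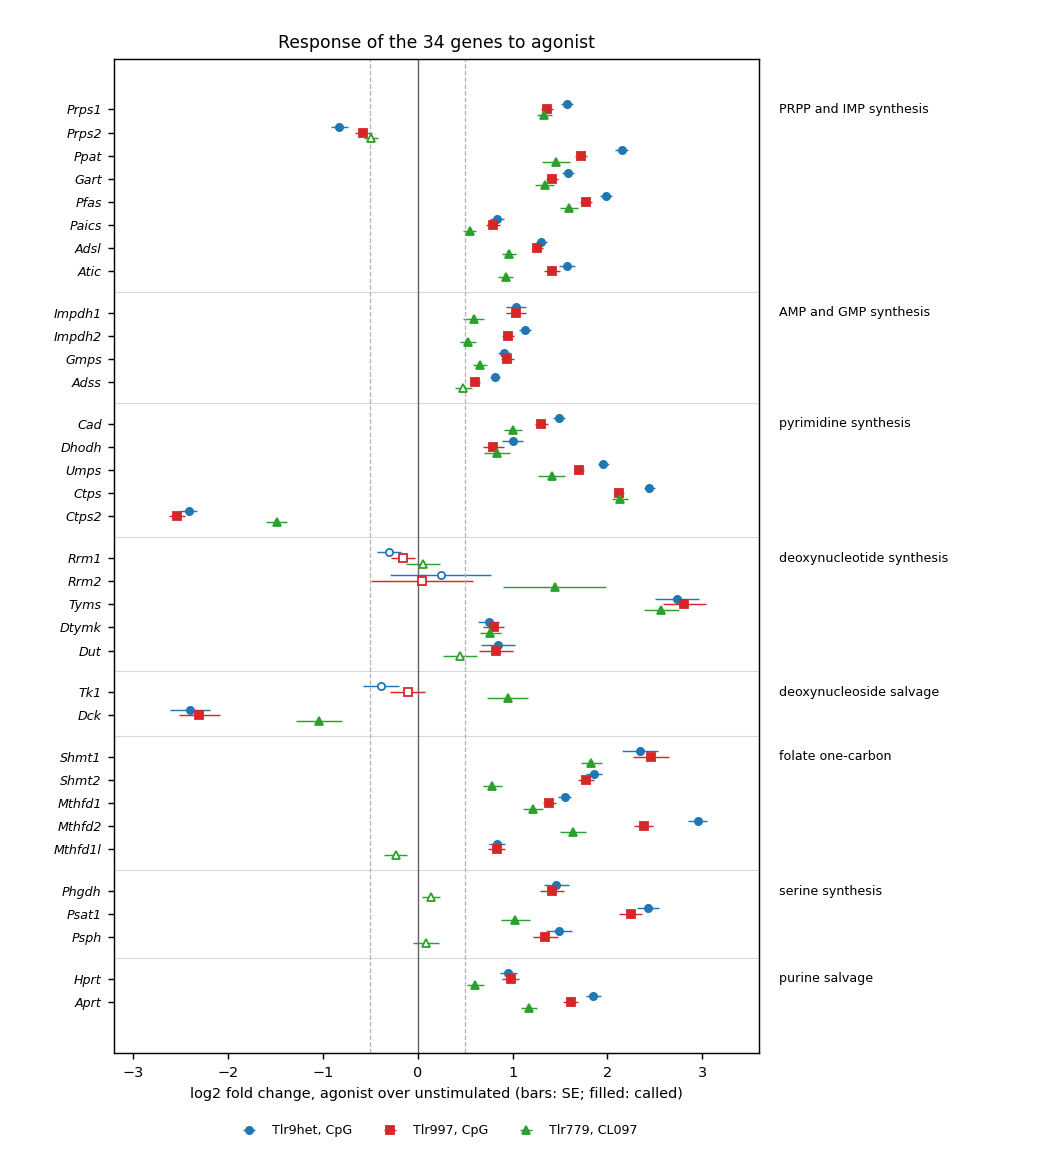
Log2 fold change (agonist over unstimulated, x axis) of the 34 genes (y axis, by branch) in Tlr9het with CpG (circles), Tlr997 with CpG (squares) and Tlr779 with CL097 (triangles), with standard errors as bars and filled symbols for called genes. Most symbols lie to the right of the dashed line at 0.5, Ctps2, Dck and Prps2 lie to the left of 0, and the triangles of the serine genes lie closer to 0 than their circles and squares.

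In PRPP and IMP synthesis, 7 of the 8 genes rose in each response, and the other one, Prps2, fell with CpG. PRPP synthetase makes the activated sugar to which the ring is added, and its isoforms went opposite ways with CpG. The values of Prps1, and those of Rrm2 and Tk1 further on, are given in full by a choice made after they were seen. Prps1 was at 5.85, 6.05 and 6.04 log2 CPM in unstimulated Tlr9het and at 7.51, 7.59 and 7.56 with CpG. In Tlr997 it was at 6.26, 6.26 and 6.23 without and 7.53, 7.70 and 7.62 with CpG, and in Tlr779 at 6.06, 6.08 and 6.07 without and 7.44, 7.50 and 7.26 with CL097. Its log2 fold changes were 1.57 (SE 0.06, limma adjusted p 1.08e-10), 1.36 (SE 0.06, adjusted p 5.49e-10) and 1.33 (SE 0.08, adjusted p 6.94e-06). The agonist libraries were above every unstimulated library.

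Prps2 was at 6.48, 6.60 and 6.52 log2 CPM in unstimulated Tlr9het and fell to 5.68, 5.71 and 5.73 with CpG (log2 fold change -0.83, SE 0.09, limma adjusted p 1.78e-06). In Tlr997 it was at 6.80, 6.61 and 6.91 without and 6.33, 6.01 and 6.25 with CpG (-0.57, SE 0.09, adjusted p 6.34e-05), a call that was lost without replicate 2 of Tlr997 with CpG, where the value was -0.48. In Tlr779 it was at 7.11 in each unstimulated library and at 6.49, 6.66 and 6.71 with CL097. That difference of -0.49 (SE 0.08, limma adjusted p 0.000678) lay just under the fold threshold. No library with agonist reached the lowest unstimulated library of its genotype. Prps1 and Prps2 both lie on chromosome X. Prps2 (167346320 to 167382872, GRCm38) lies close to Tlr7, the gene knocked out in the first arm and edited in Tlr779. Part of Prps1 is shared with the gene Prps1l3, since 5.05% of the 75-base windows of its transcripts occur in it, and how reads were divided between them is not known.

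Ppat, the amidotransferase of the first committed step of purine synthesis, had the largest increase of this branch in Tlr9het, and Pfas had it in Tlr997 and Tlr779. Ppat was at 6.16, 6.24 and 6.14 log2 CPM in unstimulated Tlr9het and at 8.21, 8.42 and 8.36 with CpG (log2 fold change 2.15, SE 0.07, limma adjusted p 1.03e-11). It was at 6.33, 6.47 and 6.53 without and 8.13, 8.21 and 8.16 with CpG in Tlr997 (1.72, SE 0.07, adjusted p 8.41e-11). In Tlr779 it was at 6.35, 6.50 and 5.87 without and 7.71, 7.75 and 7.64 with CL097 (1.46, SE 0.15, adjusted p 7.87e-05). Replicate 3 of unstimulated Tlr779 was the lowest library for Ppat.

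The later enzymes of the pathway rose as well in all 3 responses. Gart, which carries several of the middle steps, had log2 fold changes of 1.58, 1.42 and 1.34 in Tlr9het, Tlr997 and Tlr779, and Pfas, the amidotransferase between its steps, 1.98, 1.78 and 1.60. Adsl, the lyase shared with AMP synthesis, had 1.30, 1.26 and 0.96, and Atic, which closes the ring with a folate-borne carbon, 1.57, 1.42 and 0.93. Paics, a bifunctional carboxylase and synthetase, had the smallest increases of the branch, at 0.83, 0.80 and 0.55. Paics and Ppat lie head to head on chromosome 5 (76951302 to 76967509 on the plus strand and 76913249 to 76951578 on the minus strand, GRCm38), with overlapping ends, and 5.97% of the windows of Paics are also in Ppat transcripts. The starts of both genes lie together, and their increases in Tlr9het were 1.78-fold and 4.44-fold.

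Below IMP, all 4 genes of AMP and GMP synthesis rose with CpG, and in Tlr9het their median was 0.98 on the log2 scale against 1.57 for PRPP and IMP synthesis. Impdh2, the IMP dehydrogenase that commits IMP to guanine nucleotides, was at 7.58, 7.73 and 7.73 log2 CPM in unstimulated Tlr9het and at 8.81, 8.82 and 8.80 with CpG (log2 fold change 1.13, SE 0.06, limma adjusted p 1.41e-09). In Tlr997 it was at 7.80, 7.92 and 7.71 without and 8.70, 8.78 and 8.79 with CpG (0.95, SE 0.06, adjusted p 9.8e-09). In Tlr779 it was at 7.77, 7.95 and 7.66 without and 8.36, 8.36 and 8.25 with CL097 (0.53, SE 0.08, adjusted p 0.000843). The last call was lost without replicate 3 of unstimulated Tlr779, where the value was 0.47. Of the windows of Impdh2, 34.9% are shared with its pseudogene Impdh2-ps, and how reads were divided between them is not known.

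Adss, the synthetase that turns IMP toward AMP, rose least. It was at 7.35, 7.38 and 7.43 log2 CPM without and 8.18, 8.20 and 8.21 with CpG in Tlr9het (log2 fold change 0.81, SE 0.05, limma adjusted p 1e-08), and at 7.55, 7.60 and 7.49 without and 8.06, 8.21 and 8.17 with CpG in Tlr997 (0.60, SE 0.05, adjusted p 2.4e-07). With CL097 it was at 7.88, 8.08 and 7.77 against 7.37, 7.50 and 7.43, without overlap, but the difference of 0.48 (SE 0.09, adjusted p 0.00195) was under the fold threshold. Impdh1, the other IMP dehydrogenase, rose by 1.04, 1.03 and 0.59 in Tlr9het, Tlr997 and Tlr779, and Gmps, the last enzyme of GMP synthesis, by 0.91, 0.94 and 0.66. The IMP dehydrogenases, unlike the PRPP synthetases, moved in the same direction.

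In pyrimidine synthesis the CTP synthetases, which make the last conversion from UTP to CTP, parted by a wide margin. Ctps was at 5.75, 5.84 and 5.78 log2 CPM in unstimulated Tlr9het and at 8.23, 8.30 and 8.17 with CpG (log2 fold change 2.44, SE 0.06, limma adjusted p 1.38e-12). It went from 5.93, 5.91 and 5.99 to 7.99, 8.11 and 8.09 in Tlr997 (2.12, SE 0.06, adjusted p 4.9e-12) and from 5.58, 5.67 and 5.43 to 7.70, 7.78 and 7.59 with CL097 in Tlr779 (2.13, SE 0.09, adjusted p 2.86e-06). Ctps was the member with the lowest adjusted p in all 3 responses.

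Ctps2, the isozyme encoded on chromosome X, fell by a similar measure. It was at 6.70, 6.78 and 6.82 log2 CPM in unstimulated Tlr9het and at 4.41, 4.42 and 4.22 with CpG, which is 5.35-fold lower (log2 fold change -2.42, SE 0.08, limma adjusted p 3.02e-11). In Tlr997 it went from 6.72, 6.52 and 6.79 to 4.06, 4.19 and 4.16 (-2.54, SE 0.08, adjusted p 2.86e-11), and in Tlr779 from 6.83, 6.84 and 6.93 to 5.20, 5.31 and 5.63 (-1.49, SE 0.11, adjusted p 1.96e-05). No 75-base window of Ctps or Ctps2 occurred in another gene's transcripts. For both genes the 9 agonist libraries and the 9 unstimulated libraries did not overlap.

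**Figure D2:**
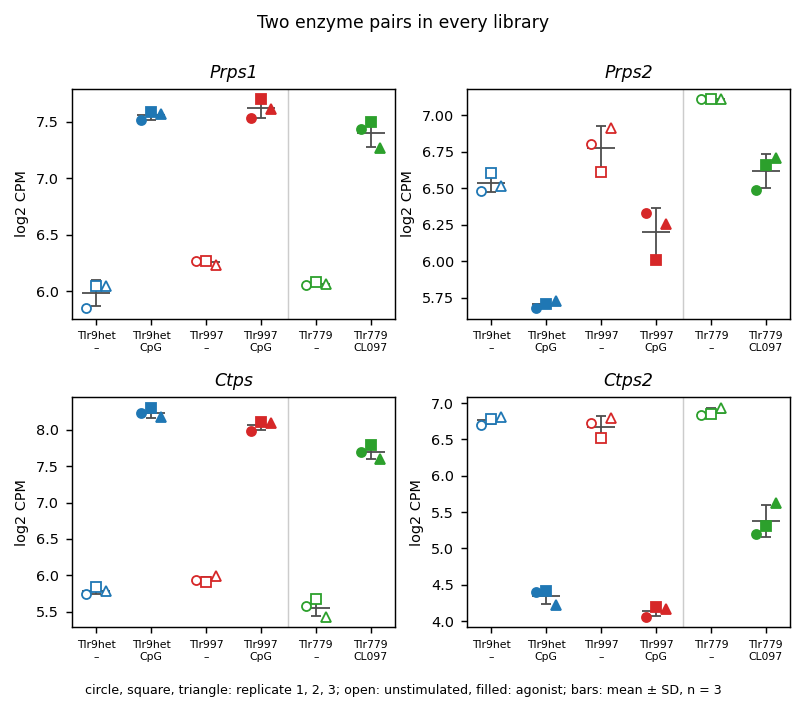
Level (log2 CPM, y axis) of Prps1, Prps2, Ctps and Ctps2 in every library of the 6 groups (x axis), with open symbols for unstimulated and filled symbols for agonist libraries, and bars for mean and SD (n = 3). Prps1 and Ctps are higher in each agonist group, and Prps2 and Ctps2 are lower, with Ctps2 near 4 with CpG and between 5.20 and 5.63 with CL097.

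The earlier pyrimidine enzymes rose in all 3 responses. Cad, the multifunctional protein that opens the pathway, rose by 1.49, 1.30 and 1.00 in Tlr9het, Tlr997 and Tlr779 on the log2 scale. Umps, which yields UMP, rose by 1.96, 1.70 and 1.41, and Dhodh, the mitochondrial dehydrogenase between them, by 1.00, 0.79 and 0.83. Together with Ctps, 4 of the 5 genes of the branch rose and 1 fell in each response.

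Deoxynucleotide synthesis split into genes that rose and genes that were not called with CpG. Tyms, thymidylate synthase, which takes its methyl group from folate, was at 2.11, 1.98 and 1.76 log2 CPM in unstimulated Tlr9het and at 4.76, 4.72 and 4.55 with CpG (log2 fold change 2.73, SE 0.23, limma adjusted p 1.42e-07). It went from 2.06, 2.23 and 1.17 to 4.51, 4.83 and 4.56 in Tlr997 (2.81, SE 0.23, adjusted p 1.22e-07) and from 1.95, 2.49 and 2.38 to 4.74, 5.08 and 4.70 in Tlr779 (2.57, SE 0.18, adjusted p 1.48e-05). It was at 4.51 to 5.08 in all 9 agonist libraries. The unstimulated replicate 3 of Tlr997 was the lowest of the 18.

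Dtymk, thymidylate kinase, rose by 0.75 (SE 0.11, limma adjusted p 5.02e-05) in Tlr9het, from 4.33, 4.19 and 4.36 to 5.00, 5.07 and 5.05 log2 CPM. In Tlr997 it rose from 4.32, 4.29 and 4.74 to 5.36, 5.22 and 5.17 (0.80, SE 0.11, adjusted p 2.9e-05), and in Tlr779 from 4.19, 4.19 and 4.44 to 5.09, 5.07 and 4.95 (0.77, SE 0.11, adjusted p 0.000465). Dut, the dUTPase that keeps uracil out of DNA, rose by 0.85 and 0.82 with CpG. With CL097 it was 0.45 higher (SE 0.18, adjusted p 0.0578) and was not called, and without replicate 1 of Tlr779 with CL097 it was called at 0.63 (adjusted p 0.00745).

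The subunits of ribonucleotide reductase, which makes deoxynucleotides from ribonucleotides and is regulated over the cell cycle, were not called with CpG. Rrm1, the large subunit, differed by -0.30 (SE 0.13, limma adjusted p 0.0466) in Tlr9het, -0.15 (adjusted p 0.294) in Tlr997 and 0.06 (adjusted p 0.797) in Tlr779. Rrm2, the small subunit made in S phase, was at 4.53, 3.69 and 2.99 log2 CPM in unstimulated Tlr9het and at 4.79, 3.77 and 3.38 with CpG (0.24, SE 0.53, adjusted p 0.705). It was at 5.16, 3.71 and 3.37 without and 4.86, 4.24 and 3.27 with CpG in Tlr997 (0.04, SE 0.53, adjusted p 0.946). In these 4 groups, replicate 1 was the highest and replicate 3 the lowest library, as they were for the sum of 10 genes of G2 and mitosis (7.11 to 8.42 on the log2 scale) and, for the highest, also for Alas2 of the erythroid markers.

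With CL097, Rrm2 was at 4.66, 6.86 and 6.96 log2 CPM against 4.53, 4.83 and 4.79 in unstimulated Tlr779. The call (log2 fold change 1.44, SE 0.55, limma adjusted p 0.0486) was close to the threshold, the groups overlapped, and the call was lost without the filter on low values (adjusted p 0.115), without the variance trend (0.0923) and without any single library other than replicate 1 with CL097 (adjusted p 0.09 to 0.139). Replicate 1 with CL097 stood at the level of the unstimulated libraries. It was also the lowest CL097 library for Rrm1 (6.69 against 7.38 and 7.43), for Tk1 and for the G2 and mitosis sum, which was 8.06 against 9.73 and 9.64. The unstimulated Tlr779 libraries had 8.47 to 8.57 for that sum, of which 1 of the 10 genes was called higher with CL097 and 0 lower. Of the 14 S-phase markers, 7, 8 and 6 were called higher in Tlr9het, Tlr997 and Tlr779, and 2, 1 and 0 lower. Of the 5 erythroid markers, with 1 tested and 0 called (0 at an unadjusted limma p under 0.05), the sum was at 5.58, 8.31 and 6.50 with CL097 and 5.96, 8.61 and 5.81 without, and replicate 2 was the highest library in both groups. The part of these markers in the Rrm2 and Tk1 differences was not tested.

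**Figure D3:**
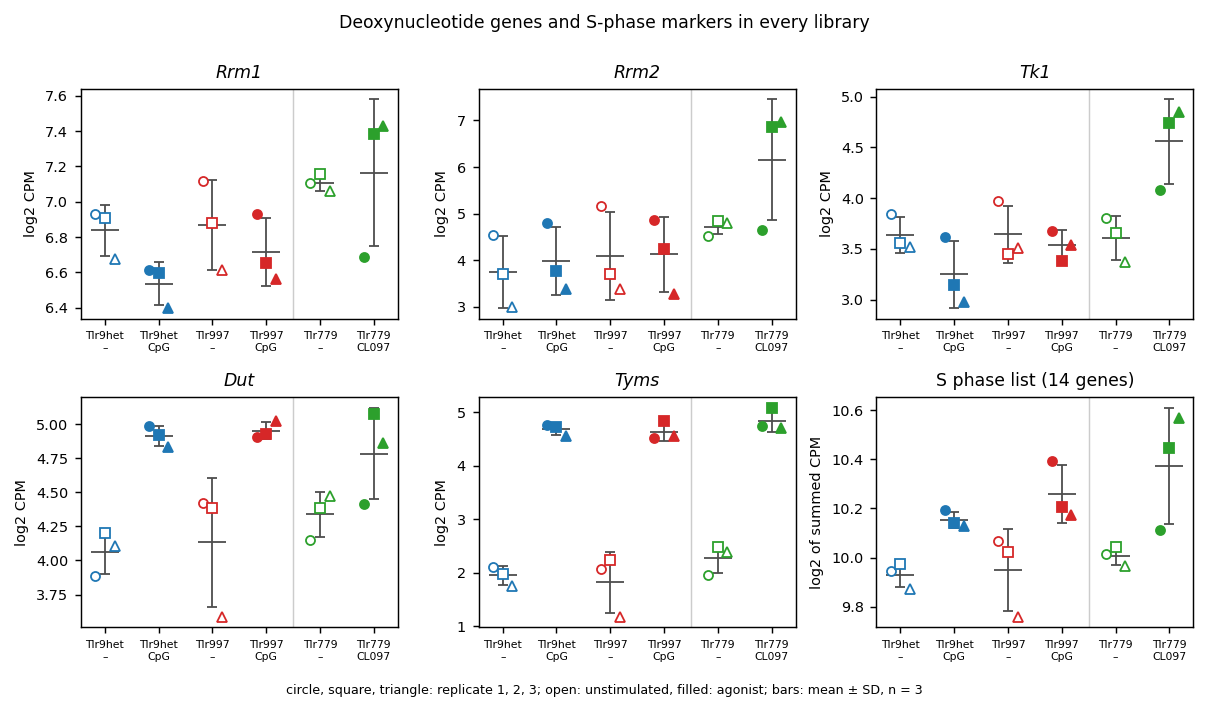
Level (log2 CPM, y axis) of Rrm1, Rrm2, Tk1, Dut and Tyms, and the log2 of the summed CPM of 14 S-phase genes, in every library of the 6 groups (x axis), with bars for mean and SD (n = 3). Replicate 1 of Tlr779 with CL097 (filled circle) lies below replicates 2 and 3 for Rrm1, Rrm2, Tk1, Dut and the S-phase sum (10.11 against 10.44 and 10.57), and Tyms is high in all agonist libraries.

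Of the deoxynucleoside salvage kinases, one fell and the other was called with CL097. Dck, deoxycytidine kinase, which phosphorylates deoxycytidine and purine deoxynucleosides, was at 6.91, 6.71 and 6.48 log2 CPM in unstimulated Tlr9het and at 4.58, 4.40 and 3.91 with CpG, which is 5.29-fold lower (log2 fold change -2.40, SE 0.21, limma adjusted p 2.56e-07). In Tlr997 it fell from 7.08, 6.61 and 6.67 to 4.76, 4.70 and 3.99 (-2.31, SE 0.21, adjusted p 4.41e-07). In Tlr779 it fell from 7.05, 6.82 and 6.98 to 5.32, 5.98 and 6.43 (-1.04, SE 0.24, adjusted p 0.0062), and the CL097 libraries lay above all CpG libraries.

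Tk1, the cytosolic thymidine kinase of proliferating cells, was not called with CpG (log2 fold changes -0.39 in Tlr9het, limma adjusted p 0.0776, and -0.11 in Tlr997, adjusted p 0.62). Without replicate 1 of Tlr9het with CpG it was called lower in that genotype (-0.58, adjusted p 0.0145). With CL097 it rose from 3.80, 3.65 and 3.37 to 4.08, 4.75 and 4.85 log2 CPM (0.95, SE 0.22, adjusted p 0.00574). Again replicate 1 was the lowest of the CL097 libraries.

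The 5 folate genes, of the pathway that carries serine carbon to the purine ring and to thymidylate, all rose with CpG in both genotypes. Mthfd2, the mitochondrial dehydrogenase and cyclohydrolase that many growing cells express and most resting tissues do not, had the largest log2 fold change of the 34 genes in Tlr9het. It went from 5.91, 5.82 and 5.79 log2 CPM to 8.76, 8.86 and 8.75, which is 7.73-fold higher (log2 fold change 2.95, SE 0.10, limma adjusted p 2.21e-11). In Tlr997 it went from 5.89, 6.36 and 6.12 to 8.49, 8.64 and 8.39 (2.38, SE 0.10, adjusted p 1.79e-10), and in Tlr779 from 5.75, 6.003 and 5.47 to 7.53, 7.34 and 7.26 (1.63, SE 0.14, adjusted p 3.09e-05). The CpG libraries of Tlr9het were the highest, those of Tlr997 next and the CL097 libraries lowest, without overlap among the stimulated groups.

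Mthfd1l, the mitochondrial synthetase that releases formate, had the smallest increase of the branch. It was at 7.01, 7.07 and 7.09 log2 CPM in unstimulated Tlr9het and at 7.83, 7.96 and 7.89 with CpG (log2 fold change 0.84, SE 0.09, limma adjusted p 9.49e-07). It was at 6.84, 7.22 and 6.92 without and 7.73, 7.90 and 7.84 with CpG in Tlr997 (0.83, SE 0.09, adjusted p 1.19e-06). With CL097 it was at 7.01, 6.72 and 7.02 against 7.31, 7.21 and 6.93, an overlapping and uncalled difference of -0.24 (SE 0.12, adjusted p 0.125). Shmt2, the mitochondrial serine hydroxymethyltransferase, rose by 1.86, 1.77 and 0.79 in Tlr9het, Tlr997 and Tlr779. Its cytosolic counterpart Shmt1 rose by 2.34, 2.46 and 1.83, and the cytosolic trifunctional enzyme Mthfd1 by 1.55, 1.39 and 1.22.

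All 3 genes of serine synthesis rose with CpG in both genotypes. Psat1, the transaminase of the middle step, was at 6.46, 6.55 and 6.47 log2 CPM in unstimulated Tlr9het and at 8.83, 8.95 and 8.99 with CpG (log2 fold change 2.43, SE 0.12, limma adjusted p 6.2e-10). It was at 6.54, 7.09 and 6.58 without and 8.83, 9.11 and 9.002 with CpG in Tlr997 (2.24, SE 0.12, adjusted p 1.71e-09). In Tlr779 it went from 6.43, 6.75 and 6.16 to 7.68, 7.31 and 7.44 with CL097 (1.03, SE 0.15, adjusted p 0.000612). Psat1 was the gene of this branch that was also called with CL097.

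Phgdh, the dehydrogenase that opens serine synthesis, was at 6.38, 6.35 and 6.59 log2 CPM in unstimulated Tlr9het and at 7.90, 7.92 and 7.89 with CpG (log2 fold change 1.46, SE 0.13, limma adjusted p 1.98e-07). It was at 6.25, 6.89 and 6.51 without and 7.85, 8.11 and 7.94 with CpG in Tlr997 (1.42, SE 0.13, adjusted p 3.1e-07). With CL097 it was at 6.88, 6.67 and 6.58 against 6.50, 6.68 and 6.53, overlapping, and differed by 0.14 (SE 0.10, adjusted p 0.231). Psph, the phosphatase of the last step, rose by 1.49 and 1.34 with CpG and differed by 0.09 (SE 0.13, adjusted p 0.593) with CL097. Of the windows of Phgdh, 35.8% occur in other annotated genes, such as Gm7901, and 8.07% of those of Psph occur in its neighbor Cct6a.

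The purine salvage enzymes, which recycle bases with PRPP, rose in all 3 responses. Aprt, the adenine enzyme, went from 5.21, 5.24 and 5.38 to 7.07, 7.17 and 7.13 log2 CPM in Tlr9het (log2 fold change 1.85, SE 0.08, limma adjusted p 1.39e-10), from 5.40, 5.61 and 5.30 to 7.01, 7.05 and 7.08 in Tlr997 (1.61, SE 0.08, adjusted p 6.7e-10) and from 5.46, 5.46 and 5.40 to 6.74, 6.61 and 6.49 in Tlr779 (1.17, SE 0.08, adjusted p 1.44e-05). Hprt, the hypoxanthine and guanine enzyme, went from 6.59, 6.76 and 6.73 to 7.54, 7.70 and 7.70 in Tlr9het (0.96, SE 0.09, adjusted p 5.03e-07), from 6.94, 7.05 and 6.66 to 7.82, 7.81 and 7.96 in Tlr997 (0.98, SE 0.09, adjusted p 4.39e-07) and from 6.82, 6.98 and 6.80 to 7.43, 7.62 and 7.37 in Tlr779 (0.61, SE 0.09, adjusted p 0.000474). In each genotype the agonist and unstimulated libraries of both genes did not overlap.

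Since most of these genes moved together, their promoters were searched for the E-box CACGTG, a motif bound by basic helix-loop-helix factors. RefSeq windows of GRCm38.p6, from 250 bases before to 50 bases after a start site, were available for 32 of the 34 genes. The motif, which reads the same on both strands, was in 5 of the 37 windows of these genes (13.5%). It was in 7.15% of the 32851 windows of all genes, which include genes not tested here. The stretches of 30 bases that hold it (its distance before the start site of the window was 7 bases in Atic, 61 in Tyms, 110 in Impdh2, 148 in Dtymk and 203 in Paics) are printed to show where it lies, with the motif in capitals, read along the gene's strand. For Tyms and Dtymk the window's start site lies 20 and 134 bases inside the outermost annotated start of the gene. The genes were Paics (chr5:76951087-76951116, plus strand), Atic (chr1:71557126-71557155, plus strand), Impdh2 (chr9:108560314-108560343, plus strand), Tyms (chr5:30073669-30073698, minus strand) and Dtymk (chr1:93802065-93802094, minus strand).
Paics: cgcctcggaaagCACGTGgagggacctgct
Atic: gaggaggggcgggacctcggggtCACGTGg
Impdh2: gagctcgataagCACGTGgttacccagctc
Tyms: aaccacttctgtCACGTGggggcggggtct
Dtymk: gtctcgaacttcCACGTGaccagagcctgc
All 5 genes rose in all 3 responses, as 23 of all 34 genes did. Their increases in Tlr9het ranged from 0.75 (Dtymk) to 2.73 (Tyms) on the log2 scale. Searched on both strands, the letters TGATGNAA, as in sites of ATF4 with its partners, were in 2.7% of the windows of these genes, in Prps1, and in 3.97% of all windows. TTTCCCGC or TTTGGCGC, as in E2F sites, were in 5.41%, in Ppat and Prps2, and in 1.56% of all windows, and CCAAT was in 40.5% and 37.4%. These are counts of letters, and binding was not measured.

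The TIR domain was compared within the first arm, where Tlr997 and Tlr9het received the same agonist. Tlr9 transcript was lower in Tlr997 than in Tlr9het in both conditions, and its part in the genotype differences was not tested. The paper reports equal amounts of TLR9 protein in B cells of these genotypes. The Tlr997 transcript also differs in sequence, with an inserted TLR7 TIR and stop before the TLR9 TIR, so the transcript levels are not like for like. With CpG, 0 of the 34 genes were called higher in Tlr997 and 0 lower (limma), where 1.25% of all genes tested were called higher and 1.47% lower. At an unadjusted p under 0.05 there were 7 (20.6%), against 19% of all genes, and the median log2 difference was -0.04, with a range from -0.28 (Mthfd2) to 0.49 (Prps2). Prps2 was at 6.33, 6.01 and 6.25 log2 CPM in Tlr997 and at 5.68, 5.71 and 5.73 in Tlr9het with CpG, without overlap. Its difference of 0.49 (SE 0.09, limma adjusted p 0.0062) was just under the fold threshold, and it was called without replicate 2 of Tlr997 with CpG (0.59, adjusted p 0.00344) and without replicate 3 of Tlr9het with CpG (0.50, adjusted p 0.0253). Prps2 lies close to the Tlr7 locus, which is knocked out in both genotypes, and Tlr7 reads also differed between them. The part of this locus in the Prps2 difference was not tested.

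Without agonist, 0 of the 34 genes were called higher or lower in Tlr997 (limma), where 0.0174% of all genes were called higher and 0% lower. At an unadjusted p under 0.05 there were 7 genes (20.6%), against 10.8% of all genes. Of the 34 differences, 29 were above 0 (85.3%, against 47.5% of all genes), with a median of 0.12 against -0.01 over all genes. Prps1, with 6.26, 6.26 and 6.23 log2 CPM in Tlr997 and 5.85, 6.05 and 6.04 in Tlr9het, had the lowest unadjusted p, at an adjusted p of 0.295 (difference 0.27, SE 0.06). The Tlr997 libraries were above those of Tlr9het for Prps1 without overlap.

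**Figure D4:**
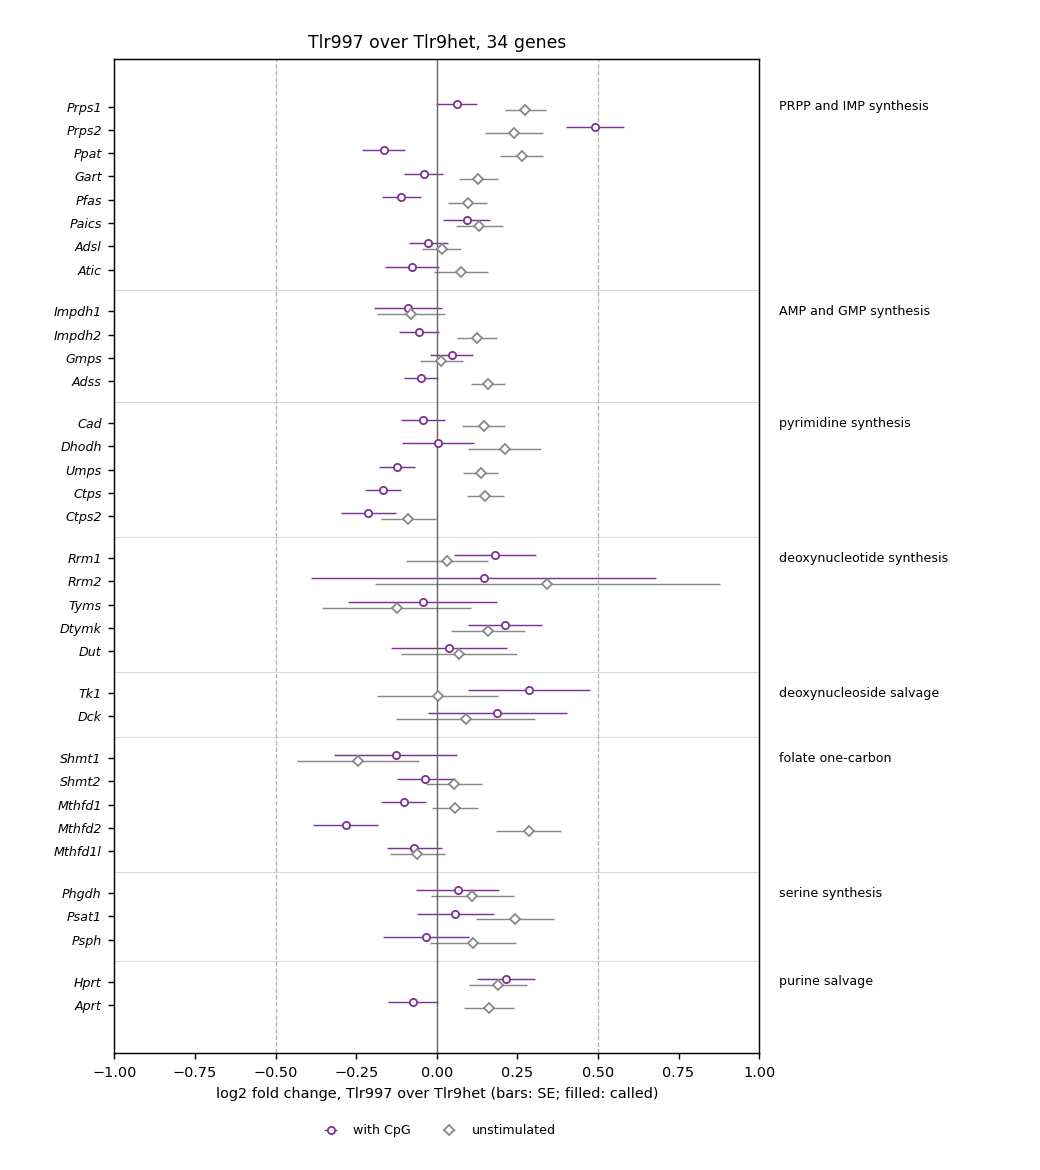
Log2 fold change of the 34 genes (y axis, by branch) between Tlr997 and Tlr9het (x axis, positive where Tlr997 is higher), with CpG (circles) and unstimulated (diamonds), with standard errors as bars. All symbols are open, since no gene was called, and all lie between the dashed lines at -0.5 and 0.5, with Prps2 with CpG nearest to the line at 0.49.

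The difference of the CpG responses, Tlr997 minus Tlr9het, was above the threshold for 0 of the 34 genes in either direction (limma), where 0.687% of all genes were called higher and 0.853% lower. At an unadjusted p under 0.05 there were 7 genes (20.6%), against 16% of all genes. The median was -0.13, and 25 of the 34 differences were below 0 (73.5%), where all genes had a median of 0.01 and 48.3% below 0. This comparison shares its libraries with the comparisons between genotypes and with both CpG responses. Mthfd2 had the most negative difference, -0.57 (SE 0.14, limma adjusted p 0.0598). It passed when same-numbered libraries were paired through a replicate block (adjusted p 0.0331, or 0.01 with a separate block in each genotype), and it passed without replicate 1 of unstimulated Tlr997 (-0.69, adjusted p 0.011). Same-numbered libraries deviated together in Tlr9het, which was not established for Tlr997. Ppat had a difference of -0.43 with an adjusted p of 0.0351, under the fold threshold, and Ctps one of -0.32 (adjusted p 0.0589). With CpG, 3 of the 5 B-cell markers (Cd79b, Ms4a1 and Cd22) were called higher in Tlr997, with a sum of 10.98 to 11.28 against 10.17 to 10.24 in Tlr9het, and none of the S-phase or mitosis markers were called. The part of these markers in the genotype differences was not tested.

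To set the response through TLR779, an RNA sensor with the TIR domain of TLR9, beside that through TLR9, the CL097 response in Tlr779 minus the CpG response in Tlr9het was tested over all 18 libraries. This comparison was added after the responses had been seen, and receptor, agonist, dose, sex, arm and any difference in age cannot be told apart in it. The paper reports less TLR779 than TLR7 protein, and TLR7 mainly in certain B-cell subsets where TLR9 is in all. The part of receptor amount and of subsets in the differences was not tested. Of the 34 genes, 3 were called higher (limma), where 10.9% of 11676 genes were, and 11 were called lower, where 9.33% were. The median difference was -0.34 against -0.05 over all genes. The 11 genes were Ppat, Atic, Impdh2, Umps, Shmt2, Mthfd2, Mthfd1l, Phgdh, Psat1, Psph and Aprt, and the 3 were Ctps2, Tk1 and Dck.

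The largest negative differences were in serine synthesis and mitochondrial one-carbon metabolism. Psph differed by -1.40 (SE 0.19, limma adjusted p 6.98e-05), Psat1 by -1.40 (SE 0.20, adjusted p 0.000108) and Phgdh by -1.32 (SE 0.18, adjusted p 4.8e-05). Mthfd2 differed by -1.32 (SE 0.17, adjusted p 4.57e-05), Shmt2 by -1.07 (SE 0.13, adjusted p 2.66e-05) and Mthfd1l by -1.07 (SE 0.15, adjusted p 6.98e-05). All 3 serine genes and all 3 mitochondrial folate genes were thus called lower, and the next member in order was Ppat at -0.69. The cytosolic genes of the same steps were not called, with -0.51 for Shmt1 (SE 0.25, adjusted p 0.131) and -0.33 for Mthfd1 (SE 0.12, adjusted p 0.0509), and Shmt1 was called with only the 4 groups compared (adjusted p 0.0266), with array weights (-0.54, adjusted p 0.0272) and without replicate 3 of unstimulated Tlr997 (adjusted p 0.0196).

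Averaged over the serine genes, the libraries were at 5.69, 5.72 and 5.81 log2 CPM in unstimulated Tlr9het and 7.48, 7.56 and 7.57 with CpG. They were at 5.67, 6.15 and 5.88 without and 7.40, 7.78 and 7.52 with CpG in Tlr997, and at 5.79, 6.03 and 5.64 without and 6.40, 6.17 and 6.15 with CL097 in Tlr779. Unstimulated libraries of the 3 genotypes overlapped, and the CL097 libraries lay above the unstimulated Tlr779 libraries and below all CpG libraries. Of the 8 genes of PRPP and IMP synthesis, Ppat at -0.69 and Atic at -0.65 were called lower in this comparison, and the uncalled ones ranged from -0.39 (Pfas) to 0.34 (Prps2). Of the 5 pyrimidine genes, Umps was called lower and Ctps2 higher, while Cad at -0.49 (limma adjusted p 0.00546), Ctps at -0.31 and Dhodh at -0.17 were not called. Umps, at -0.55, lost its call without replicate 3 of Tlr779 with CL097 and without replicate 2 of unstimulated Tlr779.

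Dck and Ctps2, which fell with either agonist, fell less with CL097, by 1.36 (SE 0.35, limma adjusted p 0.00776) and 0.93 (SE 0.14, adjusted p 0.000137) log2 units. Tk1 differed by 1.34 (SE 0.30, adjusted p 0.00292), and Rrm2 differed by 1.20 (SE 0.85, adjusted p 0.307) and was called when a replicate block in each genotype was added (adjusted p 0.0389). Without replicate 1 of Tlr779 with CL097, 4 genes were called higher and 13 lower. B-cell markers also fell less with CL097, to a sum of 10.81 to 11.28 against 10.17 to 10.24 with CpG in Tlr9het, and 3 of the 5 were called higher and 1 lower in this comparison. The neutrophil sum (5 genes, with S100a8 and S100a9) was 2.44 to 4.36 in the Tlr779 libraries and 4.58 to 6.38 in those of Tlr9het, with and without agonist. The part of these markers in the differences was not tested.

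**Figure D5:**
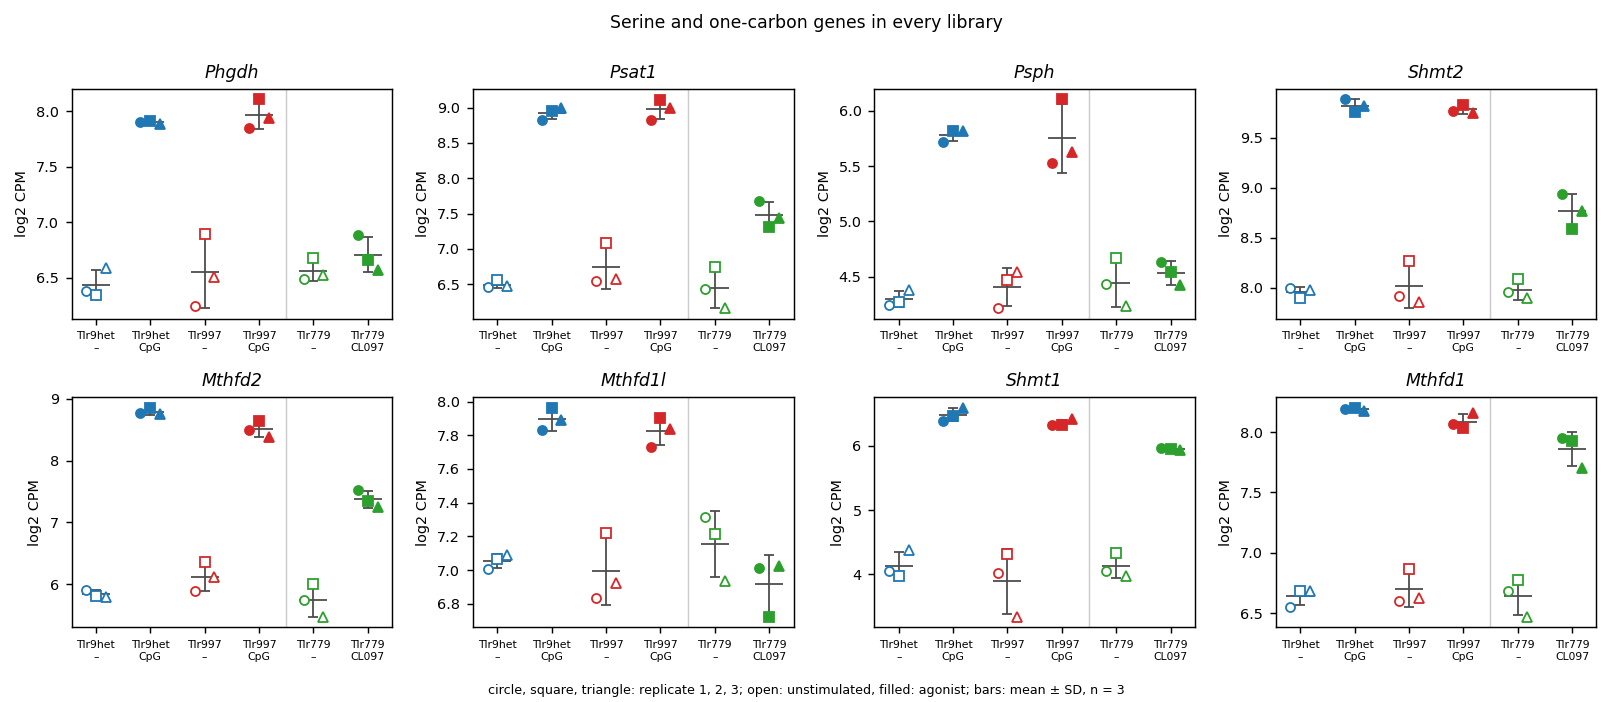
Level (log2 CPM, y axis) of the serine genes Phgdh, Psat1 and Psph, the mitochondrial folate genes Shmt2, Mthfd2 and Mthfd1l and the cytosolic Shmt1 and Mthfd1 in every library of the 6 groups (x axis), with bars for mean and SD (n = 3). CL097 libraries of Phgdh, Psph and Mthfd1l overlap their unstimulated libraries, while for Shmt1 and Mthfd1 they lie well above them.

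Beyond the 34 genes, 76 genes that act next to these pathways were listed, of which 75 were in the tables and 64 passed the filter in the first arm. With CpG, 28 of the 64 rose and 17 fell in Tlr9het, and 30 rose and 14 fell in Tlr997. With CL097, 26 of 61 rose and 12 fell. Over all genes tested, 29.7% were called higher and 28.2% lower in Tlr9het, 29.6% and 26% in Tlr997, and 22.7% and 23.6% in Tlr779. The median log2 fold changes of the listed genes were 0.21, 0.36 and 0.31, against 0.04, 0.07 and -0.02 over all genes tested.

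Among the nucleoside and folate carriers the changes were large in both directions. Slc29a2, an equilibrative nucleoside transporter, rose by 2.56, 3.09 and 2.40 in Tlr9het, Tlr997 and Tlr779, and 4 of the 5 transporters tested rose in each. Slc28a2, a concentrative transporter of purine nucleosides, fell by 3.43, 3.23 and 1.71. Slc19a1, the reduced folate carrier, rose by 2.55, 2.22 and 1.83, and of 16 other folate and methyl cycle genes tested 7 rose and 2 fell in Tlr9het. Amt, of the glycine cleavage system, fell from 0.08, 0.83 and 0.44 to -1.85, -2.33 and -3.39 log2 CPM there, near the lowest levels of the tables.

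In Tlr9het, 6 of the 12 nucleotide kinases tested rose and 4 fell, 4 of the 9 other salvage enzymes rose and 3 fell, 6 of the 17 breakdown enzymes rose and 5 fell, and 1 of the 5 other subunits and isozymes rose and 2 fell. Over all genes tested there, 29.7% were called higher and 28.2% lower, and the counts of these short lists were not tested against that. Dctd, the dCMP deaminase that supplies Tyms with substrate, rose by 3.15, 2.76 and 2.04, and Dctpp1, which breaks down dCTP, by 2.40, 2.12 and 1.71. Tk2, the mitochondrial thymidine kinase, fell by 2.39, 1.98 and 1.37, and Rrm2b, the alternative small subunit of ribonucleotide reductase, by 0.96, 0.77 and 0.96. Adssl1, the muscle isozyme of Adss, fell by 1.20, 1.92 and 0.95, and Prps1l3 rose by 1.17, 0.88 and 0.61. Of the adenylate kinases of mitochondria, Ak4 rose by 2.42 in Tlr9het from a level below 0 log2 CPM, and Ak3 fell by 1.63. Mthfd2l, the isozyme of Mthfd2, was called in none of the responses (0.03, 0.33 and 0.91).

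Samhd1, which cleaves deoxynucleoside triphosphates and so limits their pool, was the gene of these lists that was called between the genotypes. It was at 9.13, 9.12 and 9.03 log2 CPM in unstimulated Tlr9het and at 5.94, 6.14 and 5.86 with CpG (log2 fold change -3.12, SE 0.11, limma adjusted p 2.21e-11). In Tlr997 it was at 9.08, 8.92 and 9.04 without and 6.47, 6.80 and 6.32 with CpG (-2.48, SE 0.11, adjusted p 2.01e-10). In Tlr779 it went from 9.16, 8.79 and 9.09 to 7.67, 7.07 and 8.21 (-1.37, SE 0.25, adjusted p 0.00201).

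With CpG, the Tlr997 libraries of Samhd1 therefore lay above those of Tlr9het without overlap (log2 difference 0.55, SE 0.11, limma adjusted p 0.00856). The call was lost without replicate 2 of Tlr997 with CpG (0.42), without replicate 3 of Tlr9het with CpG (0.49) and with all 18 libraries in 1 model (adjusted p 0.136). Without agonist it was at 8.79 to 9.16 in all 3 genotypes.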

How the data were processed

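The values were log2 CPM per library as deposited: per the labels and methods, the authors trimmed reads (Trim Galore 0.6.5), aligned them to mm10 (STAR 2.6.1a), counted them per gene (featureCounts of Subread 2.0.1) and applied quantile normalization and voom. Whether counting used strand is not given in the sources used here. Quantile normalization forces one distribution on all libraries and so removes any change in total RNA. In the first arm, 6306 of the 6614 genes under -4 log2 CPM throughout held one value per replicate number, as when an offset per number is removed, a step not given in the sources used here. Such genes were not counted in Tlr779. There, Hbb-b2 held the same values by number as in Tlr9het (-5.08, -4.97 and -5.10), so the trace was not confined to the first arm. The tables held no counts, so no interval for counting error could be given.

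Genes over 0 log2 CPM in at least 3 fitted libraries were tested with limma 3.58.1 (R 4.3.3, variance trend on, Benjamini-Hochberg adjustment), with 12 libraries in the first arm, 6 for Tlr779 and 18 for the comparison across arms. The script was tested on simulated data. The members and lists were chosen with earlier results of these data known. In each branch, the called members with the largest and smallest change in Tlr9het were given in full, and the other pathway genes called between genotypes or at the extremes of their list were named. P-values measure the spread between these samples as deposited. The main fits had no replicate block, and the effect on p-values of an offset removed before deposit was not tested. Same-numbered libraries deviated together in Tlr9het (correlations 0.29 to 0.51) and Tlr779 (0.25 to 0.49) and not in every pair of Tlr997 (0.025 to 0.37). Positions and promoters were from RefSeq (GRCm38.p6), and shared 75-base windows from GENCODE transcripts. A Tlr7 wild-type control was not analysed here. A gene each of the B-cell and erythroid marker lists is not reported here and was left out of their counts and sums.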

Additional observations from a re-analysis of the deposited data

Results flagged for a closer look

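The CpG responses of Tlr997 and Tlr9het differed for Samhd1, the deoxynucleoside triphosphate hydrolase. The difference, Tlr997 minus Tlr9het, was 0.63 on the log2 scale (0.632, SE 0.15, limma adjusted p 0.0492), since Samhd1 fell by 3.12 in Tlr9het and by 2.48 in Tlr997. With CpG, it was at 6.47, 6.80 and 6.32 log2 CPM in Tlr997 and at 5.94, 6.14 and 5.86 in Tlr9het, without overlap. The call was close to the threshold and was lost without the filter on low values (adjusted p 0.0995), with median centring (0.0545), without the variance trend (0.137), with all 18 libraries in 1 model (0.3), and without any single library other than replicate 3 of Tlr997 in either condition (adjusted p 0.0509 to 0.13). Ms4a1 and Cd79b of the B-cell markers differed in the same direction in this comparison, by 1.16 and 1.14, and their part in the Samhd1 difference was not tested. No other member or pathway gene was called in it.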

How the results depend on the processing

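Directions and calls held under most alternatives. With a log2 fold change over 1 required, 4060, 3768 and 2582 genes were called in the responses of Tlr9het, Tlr997 and Tlr779, 14 members rose in Tlr779, 74 genes were called between genotypes with CpG and 46 in the difference of the CpG responses, and across arms 787 genes were called and 6 members lower. With no fold threshold, 1 member (Prps2) was higher in Tlr997 with CpG (680 genes in all), 1 (Ppat) was lower in the difference of responses, and 18 members were lower across arms (3635 genes in all). Array weights gave 485 genes between genotypes with CpG and 377 in the difference of responses, with 1 member (Mthfd2, -0.65) lower. With only the groups compared, 0 genes were called between unstimulated genotypes. In the difference of responses 109 genes were called without the filter and 98 without the variance trend. With the replicate number as a block, 1 member (Mthfd2) was lower there, and 1 also with the block within genotype (328 genes in all). The block moved no other member count by over 1.5 times.

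Leaving out 1 library at a time, all calls ranged from 187 to 410 between genotypes with CpG, with 0 to 1 member higher (Prps2), and from 2 to 4 between unstimulated genotypes. In the difference of responses they ranged from 87 (without replicate 1 of unstimulated Tlr9het) to 295 (without replicate 3 of unstimulated Tlr997), with 0 to 1 member lower (Mthfd2). Uncalled values changed sign: the range was -0.163 to 0.639 for Rrm2 in Tlr9het, -0.324 to 0.583 for Rrm2 and -0.205 to 0.055 for Tk1 in Tlr997, -0.072 to 0.298 for Rrm1 and -0.018 to 0.199 for Psph in Tlr779, and -0.023 to 0.103 for Dtymk across arms. The cause was not tested. A group with 1 library left out kept 2, and the spread was pooled over groups. Depth was unknown, so its limits could not be set.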
